A study of Homo sapiens with 6 samples.

Results

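Small nucleolar RNA host genes are transcribed as longer RNAs whose introns carry small nucleolar RNAs (snoRNAs). The members were all rows of the expression table named SNHG followed by a number, together with GAS5 and ZFAS1. There were 31 of them among 50868 genes, and 24 had enough counts to be tested. RNA had been sequenced from KYSE-150, a widely used cell line derived from human squamous carcinoma of the oesophagus. The 2 groups held 3 libraries each, a control group titled nc, called wild type in the series text, and a group called siZNF514, which the labels describe both as a ZNF514 knockout and by the prefix usual for a short interfering RNA. ZNF514 encodes a zinc finger protein. Whether nc cells were given a control siRNA, and the dose and duration of treatment, were not given in the sources used here. All cells were kept in RPMI medium with 10% serum, at 37 °C under 5% carbon dioxide. The labels do not say whether a group's 3 libraries were separate cultures. The p-values therefore measure only the spread between these libraries, which may be technical.

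In vertebrates most snoRNAs are cut from introns after splicing. Box C/D snoRNAs guide ribose methylation and box H/ACA snoRNAs guide pseudouridylation, mainly of ribosomal RNA, and small Cajal body RNAs (scaRNAs) do the same for spliceosomal RNAs. Ribosomal protein genes are the other large class of hosts. The spliced RNA left from a host gene often begins with a run of pyrimidines, the terminal oligopyrimidine (TOP) start shared with ribosomal protein mRNAs. Many of these RNAs have short open reading frames and are broken down by nonsense-mediated decay (NMD), so their steady level depends on both synthesis and decay.

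The sequences that set the members apart are the guides in their introns. The following snoRNAs are shown because their hosts carry the main results: SNHG29 had the highest CPM of the members, SNHG5 rose, and SNHG1, SNHG32, SNHG15, SNHG7 and SNHG8 fell in the siZNF514 libraries. They were read from GENCODE 29 (GRCh38), 5′ to 3′ and with T for U. Capitals in the box C/D snoRNAs mark box C (TGATGA) and box D (CTGA), and capitals in the box H/ACA snoRNAs mark box H (ANANNA) and the ACA box near the end.
SNORD49A, box C/D, in SNHG29, chr17:16440036-16440106, plus strand: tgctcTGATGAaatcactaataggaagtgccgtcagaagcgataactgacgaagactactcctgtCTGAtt
SNORD50B, box C/D, in SNHG5, chr6:85677589-85677658, minus strand: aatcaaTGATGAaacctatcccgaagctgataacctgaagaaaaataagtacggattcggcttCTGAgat
SNORD27, box C/D, in SNHG1, chr11:62855012-62855083, minus strand: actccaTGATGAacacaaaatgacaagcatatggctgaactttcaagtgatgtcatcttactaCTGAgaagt
SNORD48, box C/D, in SNHG32, chr6:31835263-31835326, plus strand: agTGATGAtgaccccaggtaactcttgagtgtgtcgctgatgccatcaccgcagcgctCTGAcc
SNORA9, box H/ACA, in SNHG15, chr7:44985378-44985510, minus strand: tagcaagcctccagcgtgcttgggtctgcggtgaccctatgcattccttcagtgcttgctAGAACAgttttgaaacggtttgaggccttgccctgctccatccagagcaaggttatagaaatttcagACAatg
SNORA17A, box H/ACA, in SNHG7, chr9:136726747-136726879, minus strand: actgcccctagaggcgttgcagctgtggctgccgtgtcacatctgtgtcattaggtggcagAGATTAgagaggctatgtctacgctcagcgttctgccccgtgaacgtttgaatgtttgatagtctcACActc
SNORA24, box H/ACA, in SNHG8, chr4:118279190-118279320, plus strand: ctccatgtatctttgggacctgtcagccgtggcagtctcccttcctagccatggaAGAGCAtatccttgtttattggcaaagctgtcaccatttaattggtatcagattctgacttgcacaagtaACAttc
The box C/D guides were 64 to 72 bases long and the box H/ACA guides 131 to 133. The table's shortest row spans 200 bases, so none of these guides has a row, and the values below are those of the host transcripts.

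The start of the transcript is the other feature that members can share with ribosomal protein genes. A TOP-like start was defined as a C followed by at least 4 more C or T on the transcribed strand, beginning within 5 bases of the RefSeq start. It was found in 10 of the 21 tested members with a RefSeq promoter (47.6%) and in 7408 of 35116 promoters in all (21.1%). The latter include promoters of genes with too few counts to be tested, so the sets are unlike. The difference between these shares was not tested. The windows below run from 25 bases before to 25 bases from the annotated start (RefSeq, GRCh38.p14), with the tract in capitals. SNHG12 and SNHG4 fell, SNHG5 and SNHG19 rose, ZFAS1 did not pass the test, and SNHG1, which fell, held no such tract. Neither did GAS5 at its RefSeq start. RefSeq starts are not always those of the counted genes. The GAS5 window lies at chr1:173869021-173869070, beyond base 173868882, where the counted gene starts on the minus strand. For SNHG14, which fell and held no such tract, the window lies at chr15:24823583-24823632. The counted SNHG14 starts at base 24978583. Of the windows below, those of SNHG12, ZFAS1 and SNHG1 also leave out the start of the counted gene. These genes start at base 28582983 (SNHG12, minus strand), 49278178 (ZFAS1, plus strand) and 62855914 (SNHG1, minus strand).
SNHG12, chr1:28581849-28581898, minus strand: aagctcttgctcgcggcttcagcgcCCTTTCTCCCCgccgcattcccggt
SNHG4, chr5:139274076-139274125, plus strand: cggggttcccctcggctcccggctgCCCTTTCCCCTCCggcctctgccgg
SNHG5, chr6:85678709-85678758, minus strand: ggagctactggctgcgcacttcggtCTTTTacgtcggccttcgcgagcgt
SNHG19, chr16:2155334-2155383, minus strand: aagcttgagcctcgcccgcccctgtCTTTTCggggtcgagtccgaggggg
ZFAS1, chr20:49278617-49278666, plus strand: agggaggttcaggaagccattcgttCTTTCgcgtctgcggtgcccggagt
SNHG1, chr11:62855861-62855910, minus strand: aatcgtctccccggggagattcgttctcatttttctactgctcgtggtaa
Of the tested members with a promoter, a TOP-like start was present in 6 of the 10 that fell, 2 of the 3 that rose and 2 of the 8 that did not pass. Members with such a start therefore occurred among all 3 outcomes. The palindrome CACGTG was searched on both strands of the window from 250 bases before to 50 bases from the start. It was found at SNHG7 and SNHG30 (2 of 21, 9.52%) and in 7.26% of all promoters, a difference that was not tested.

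The libraries held 12175259 to 14318909 counts. CPM is a library's counts scaled to the same total, after its own total was multiplied by a scaling factor (TMM). These factors were 1.043 to 1.0489 in nc and 0.9543 to 0.9622 in siZNF514, so they differed between the groups. On this scale 1 count was worth 0.0701 to 0.0789 CPM. Scaling by total counts alone, used below as an alternative, leaves these factors out. ZNF514, the targeted gene, had 239, 273 and 261 counts in nc and 64, 82 and 63 in siZNF514. Its level was 27.32% of nc (log2 fold change -1.87, SE 0.136, adjusted p = 5.77e-05 by the edgeR quasi-likelihood test). All 8 squamous epithelium markers were measured, with a summed level of 1554.1 to 1726.1 CPM in nc and 1342.5 to 1497.3 CPM in siZNF514. At an adjusted p of 0.05, 5 were lower and 1 higher, beside 25.1% lower and 25.5% higher of all tested genes. The 5 fibroblast markers together had 23, 26 and 45 counts in nc and 7, 6 and 232 in siZNF514, so siZNF514 replicate 3 stood apart. The 4 leukocyte markers summed to 54.83 to 67.96 CPM in nc and 48.8 to 53.94 CPM in siZNF514, nearly all of it CD68 (means of 60.53 and 51.71 CPM). The 4 endothelial markers summed to 3.105 to 3.314 CPM and 1.883 to 2.418 CPM, mainly VWF and CDH5. CD3E of leukocytes and KDR of endothelium were at 0 in nc and had means of 0.02443 and 0.04886 CPM in siZNF514. The part of these markers in the members' values was not tested. Without siZNF514 replicate 3, the member counts given next were 4 higher and 11 lower. In bulk libraries, fewer cells of a kind and less RNA per cell cannot be told apart.

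More host genes were lower than higher after siZNF514 treatment. Of the 24 tested members, 12 were lower, 3 were higher and 9 did not pass an adjusted p of 0.05. Over all 14250 tested genes, 25.1% were lower and 25.5% higher, 50.6% in either direction, and the difference from the members' shares was not tested. With libraries scaled by total counts alone, which moved the median of all genes by -0.127 on the log2 scale, 2493 genes were higher and 4775 lower, and 2 members were higher and 17 lower. Over the members the median log2 fold change of siZNF514 over nc was -0.26, over all tested genes it was -0.01, and members ranged from -1.25 to 0.86. In each of the 12 lower members every siZNF514 library lay below every nc library, a separation found in 30.3% of all tested genes. In each of the 3 higher members every siZNF514 library lay above, as in 30.0% of all tested genes. In the other 9 the groups overlapped. Only SNHG11, SNHG9 and SNHG14 among the members fell by at least 2-fold (7.21% of all genes did), and no member rose by that much (2.08% did). The share of genes changed in this series is large, so passing the test did not by itself set a member apart.

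**Figure D1:**
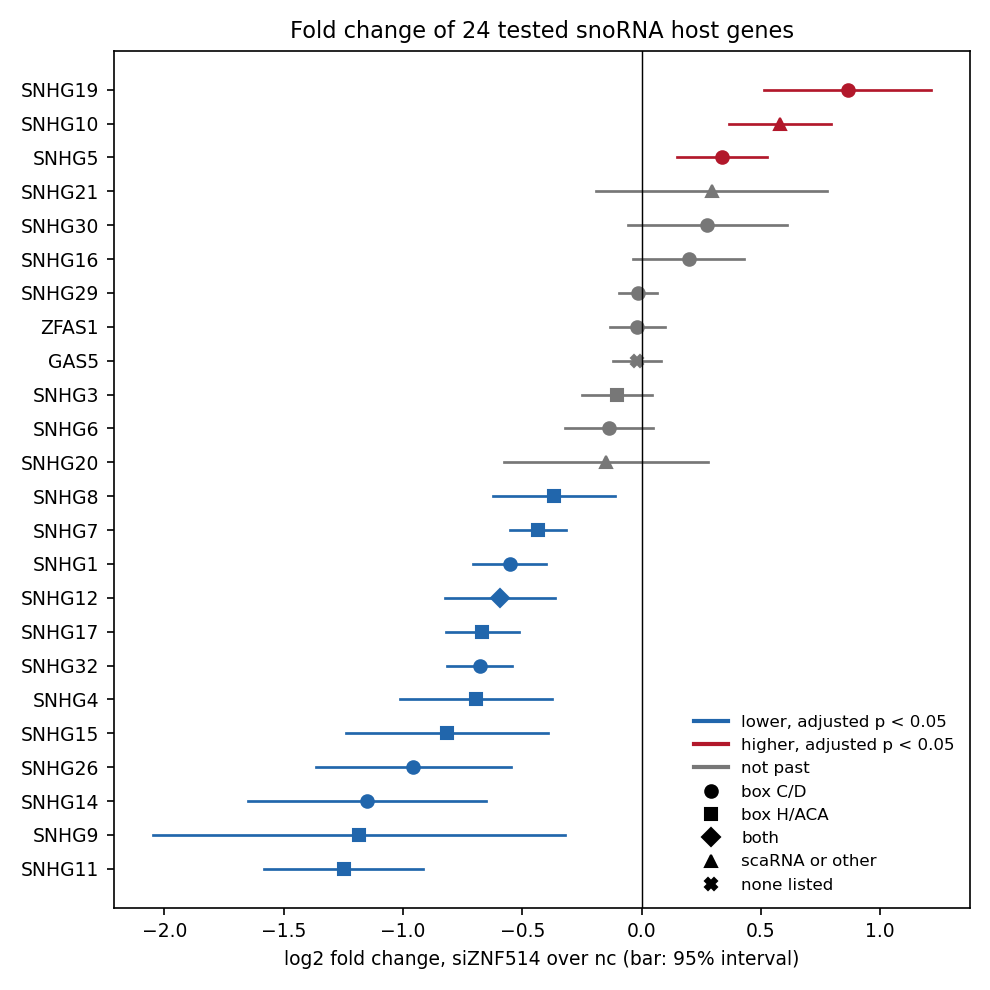
Log2 fold change of siZNF514 over nc for each of the 24 tested members, with 95% intervals from the edgeR quasi-likelihood fit on 3 libraries a group. The 12 members that fell lie between -1.25 and -0.37, the 3 that rose between 0.34 and 0.86, and the intervals of the other 9 include 0.

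As a group the members took a small share of the RNA and that share was lower in siZNF514. Together they held 0.1436% to 0.1467% of all counts in nc and 0.118% to 0.1213% in siZNF514. Their summed level was 1371.8, 1409.5 and 1393.7 CPM in nc and 1228.0, 1252.3 and 1272.5 CPM in siZNF514. The 12 members that fell summed to 453.3 to 480 CPM in nc and 295.1 to 315.8 CPM in siZNF514. SNHG29, GAS5 and ZFAS1 alone made up 48.351% to 49.078% of the members' CPM in nc and 53.083% to 53.810% in siZNF514, and none of these 3 passed the test. The rest of the sum is made of the 3 members that rose and the other members that did not pass, and the 12 were summed because they had fallen.

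Hosts of box H/ACA guides alone were 7 of the 12 lower members. Of all tested genes, 25.1% were lower. SNHG11 (chromosome 20, host of SNORA71E and SNORA60 and a neighbour of SNHG17) had 19.56, 15.36 and 15.07 CPM in nc and 7.611, 6.439 and 6.962 CPM in siZNF514. The 3 siZNF514 libraries were close together and all below nc, where replicate 1 was the highest. It fell by 1.25 on the log2 scale (SE 0.142, adjusted p = 0.000386), to 42.03% of nc, the lowest ratio among the tested members. SNHG17, the host of several SNORA71 copies, lies close to SNHG11 on the other strand. Its level was 58.38, 61.72 and 56.57 CPM in nc and 35.62, 36.34 and 39.21 CPM in siZNF514, and its libraries agreed closely within each group. It fell by 0.67 on the log2 scale (SE 0.065, adjusted p = 0.000198). These neighbours thus both fell, SNHG11 with a log2 fold change interval of -1.58 to -0.92.

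SNHG15, the host of SNORA9, had 46.96, 66.42 and 72.19 CPM in nc and 35.78, 29.28 and 40.38 CPM in siZNF514. The nc libraries were spread widely, with replicate 1 the lowest, but all lay above siZNF514. The log2 fold change of SNHG15 was -0.82 (SE 0.180, adjusted p = 0.00794). SNHG4, whose introns carry SNORA74 guides, fell from 8.184 ± 0.5181 to 5.057 ± 0.5085 CPM (SD, n = 3 each), with 8.229, 7.645 and 8.678 CPM in nc and 5.336, 5.366 and 4.47 CPM in siZNF514. Its log2 fold change was -0.69 (SE 0.135, adjusted p = 0.00467), and 14% of its exon bases are shared with MATR3 on the same strand, which itself did not pass (-0.22, adjusted p = 0.487). SNHG7, a host of SNORA17A, had 80.42, 76.94 and 77.71 CPM in nc and 57.91, 59.33 and 56.58 CPM in siZNF514. This was among the tightest sets of values, with SDs of 1.829 and 1.378 CPM, and its log2 fold change was -0.44 (SE 0.049, adjusted p = 0.000386).

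SNHG8, the host of SNORA24, and SNHG9, the host of SNORA78, gave the least secure of the lower calls. SNHG8 had 44.09, 43.41 and 48.36 CPM in nc and 29.66, 36.57 and 38.99 CPM in siZNF514. Its log2 fold change was -0.37 (SE 0.108, adjusted p = 0.0258), and its adjusted p over the alternatives ran from 0.00306 to 0.0814. It missed the threshold without nc replicate 1 (0.0533), nc replicate 3 (0.0814) or siZNF514 replicate 2 (0.0503). SNHG9 is a very short gene with few reads, 18, 11 and 15 counts in nc and 8, 6 and 5 in siZNF514. In CPM that was 1.397, 0.7715 and 1.183 against 0.6277, 0.4599 and 0.3664, which gave -1.19 on the log2 scale (SE 0.367, adjusted p = 0.0307). Leaving out nc replicate 1 (0.103) or 3 (0.0821), or siZNF514 replicate 2 (0.0844) or 3 (0.0966), ended the SNHG9 call, and its adjusted p over the alternatives ran from 0.021 to 0.103. SNHG3, which carries SNORA73A and SNORA73B, guides of ribosomal RNA processing, had 53.8, 52.81 and 49.55 CPM in nc and 49.9, 45.92 and 49.54 CPM in siZNF514. These groups overlapped, and the log2 fold change of SNHG3 was -0.10 (interval -0.25 to 0.04, adjusted p = 0.207).

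Hosts of box C/D snoRNAs were divided between lower, higher and not passing. SNHG32, the host of SNORD48 and SNORD52, is annotated as protein coding in GENCODE 29 and had the smallest adjusted p of the members. Its libraries read 81.66, 86.48 and 82.13 CPM in nc and 54.69, 49.52 and 52.11 CPM in siZNF514. The groups did not overlap, with SDs of 2.656 and 2.585 CPM, and the log2 fold change was -0.68 (SE 0.058, adjusted p = 0.000112). SNHG1, which carries SNORD22, SNORD30 and SNORD25 to SNORD28, had 76.46, 81.78 and 85.36 CPM in nc and 56.97, 52.05 and 57.02 CPM in siZNF514. It fell by 0.55 on the log2 scale (SE 0.065, adjusted p = 0.000468), to 68.16% of nc. SNHG26, the host of SNORD93, fell from 11.18, 9.609 and 9.941 CPM to 5.571, 4.063 and 6.156 CPM (log2 fold change -0.96, SE 0.173, adjusted p = 0.00333).

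SNHG14 is the long imprinted transcript of chromosome 15 that carries the SNORD115 and SNORD116 clusters. Of the 161 snoRNA and scaRNA entries annotated inside members, 84 lie in SNHG14, most of them in these clusters. It spans 440880 bases and runs antisense into UBE3A. It had 4.192, 4.348 and 3.314 CPM in nc and 1.491, 2.146 and 1.686 CPM in siZNF514, which gave -1.15 on the log2 scale (SE 0.212, adjusted p = 0.00355). UBE3A (-0.12, adjusted p = 0.522) and SNRPN (-0.06, adjusted p = 0.762), which share under 1% of its exon bases, did not pass. SNHG12 carries both classes of guide. It fell from 20.8, 19.36 and 19.49 CPM to 14.12, 13.49 and 11.87 CPM (log2 fold change -0.60, SE 0.098, adjusted p = 0.00216).

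The 3 members that rose were SNHG19, SNHG10 and SNHG5. SNHG19, a 562-base gene hosting SNORD60, had 4.891, 4.629 and 5.444 CPM in nc and 7.846, 10.2 and 9.161 CPM in siZNF514. It reached 181.8% of nc (log2 fold change 0.86, SE 0.148, adjusted p = 0.00262), the highest ratio of any tested member. SNHG10, the host of SCARNA13, had 13.82, 12.98 and 14.44 CPM in nc and 21.26, 21.16 and 19.2 CPM in siZNF514 (0.58, SE 0.091, adjusted p = 0.00168). GLRX5, a gene of iron-sulphur cluster assembly on the opposite strand, shares 391 exon bases with SNHG10 (20.1% of its exons) and also rose, from 97 to 127 CPM (0.39, adjusted p = 0.00371). Without knowledge of strand use in counting, reads of that shared stretch cannot be told apart. SNHG5, the host of SNORD50B, had 79.57, 78.27 and 72.03 CPM in nc and 86.39, 103.6 and 100.4 CPM in siZNF514 (0.34, SE 0.080, adjusted p = 0.011). With libraries scaled by total counts alone SNHG5 gave 0.21 (adjusted p = 0.0595), and over all alternatives its adjusted p ran from 0.000202 to 0.0595.

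The 3 members with the highest CPM had the log2 fold changes closest to 0. SNHG29, a host of SNORD49A, SNORD49B and SNORD65, had 363.2, 369.8 and 366.5 CPM in nc and 353.6, 362.8 and 372.2 CPM in siZNF514. GAS5, named for its accumulation in growth-arrested cells, had 197.5, 207.8 and 198.3 CPM in nc and 192.8, 199.4 and 203.4 CPM in siZNF514. ZFAS1, the host of the SNORD12 family, had 112.6, 103.9 and 111.9 CPM in nc and 105.5, 109.7 and 109.1 CPM in siZNF514. In all 3 the groups overlapped. The 95% intervals of the log2 fold change were -0.09 to 0.07 for SNHG29, -0.12 to 0.08 for GAS5 and -0.13 to 0.10 for ZFAS1. These values depend on the scaling. With total counts alone the values became -0.14 (SNHG29), -0.15 (GAS5) and -0.15 (ZFAS1) and passed as lower (adjusted p = 0.00919, 0.021 and 0.0433, each the lowest over its alternatives, which reached 0.946, 0.996 and 0.995).

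The other members that did not pass were SNHG6, SNHG16, SNHG20, SNHG21 and SNHG30, besides SNHG3. SNHG6, a box C/D host, had a log2 fold change of -0.14 (interval -0.32 to 0.05, adjusted p = 0.186). SNHG16, a box C/D host, had 35.63, 39.28 and 34.24 CPM in nc and 46.45, 41.62 and 37.16 CPM in siZNF514, a difference of 0.20 (interval -0.04 to 0.43, adjusted p = 0.135), which passed without siZNF514 replicate 3 (0.28, adjusted p = 0.0465, against up to 0.581 over the other alternatives). SNHG30 gave 0.28 (interval -0.06 to 0.61), SNHG21 0.29 (-0.19 to 0.78) and SNHG20 -0.15 (-0.58 to 0.28), or 0.029 without siZNF514 replicate 3. Single libraries also moved other values: SNHG21 was 0.127 without nc replicate 3 and 0.46 without nc replicate 2, SNHG6 was -0.071 without nc replicate 2, and SNHG30 was 0.184 without nc replicate 1. SNHG16 was 0.124 without siZNF514 replicate 1, and SNHG3 was -0.059 without siZNF514 replicate 2. The intervals of SNHG16, SNHG30 and SNHG21 hold a change as large as that of SNHG5 (0.34), which passed. The interval of SNHG20 holds one as large as that of SNHG8 (-0.37), which also passed. Those of SNHG6 and SNHG3 hold neither. SNHG21 shares 72.9% of its exon bases with a second non-coding gene on the same strand, AC105339.2, so its counts are uncertain. SNHG20 shares 7.56% of its exon bases with SEC14L1 on the same strand, which fell (-0.37, adjusted p = 0.000438), and SNHG3 shares 5.92% with RCC1, which did not pass (-0.32, adjusted p = 0.196). How reads of these shared stretches were divided is not known.

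**Figure D2:**
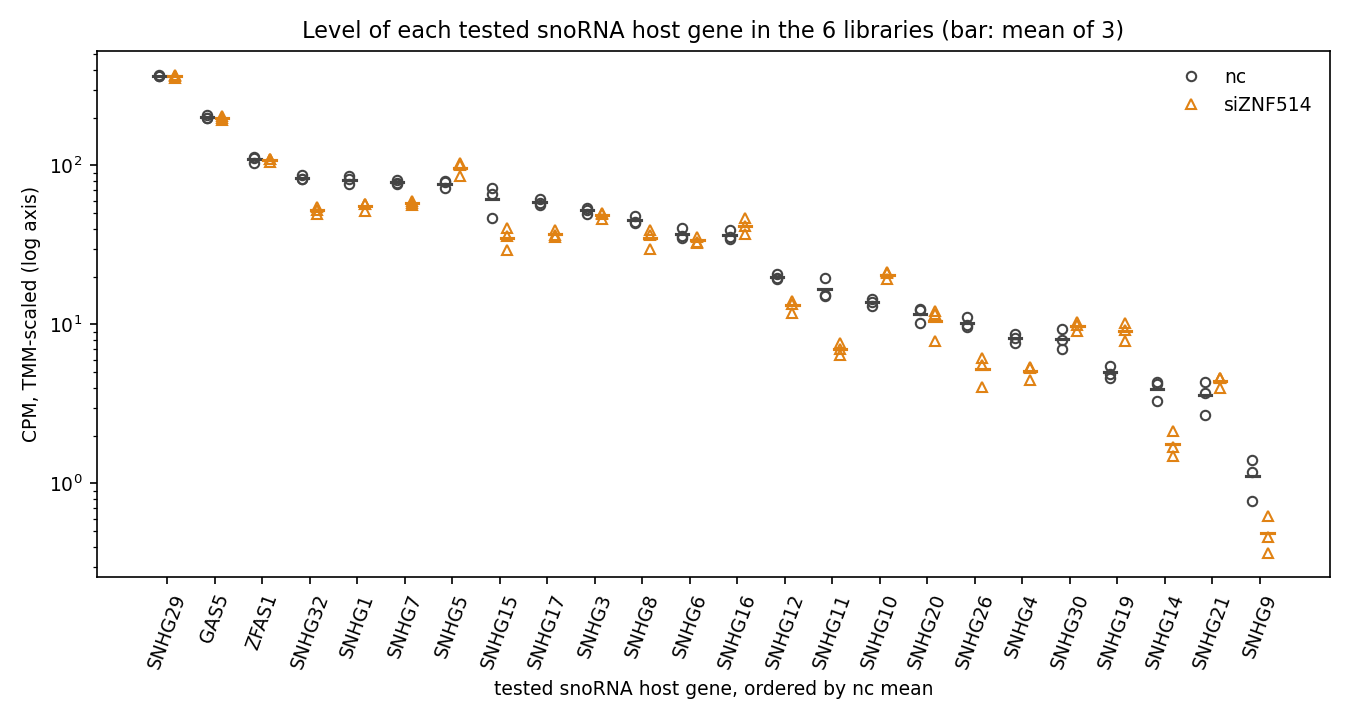
CPM of the tested members in each of the 6 libraries on a log axis, nc and siZNF514 marked apart. SNHG29, GAS5 and ZFAS1 overlap between groups at over 100 CPM, while SNHG32, SNHG17, SNHG7 and SNHG1 show 2 separate clusters of 3 libraries.

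The members were also sorted by the class of snoRNA gene inside them on the same strand in GENCODE 29, a grouping made after the values had been seen and given as a description. Of 8 tested hosts of box H/ACA guides alone, 7 fell and SNHG3 did not pass. The median of the 8 was -0.68. Among the 7, SNHG8 lost the call in 3 of 12 alternatives and SNHG9 in 6 of 11. Over all tested genes 25.1% were lower and 25.5% higher. Of 11 tested hosts of box C/D guides alone, 4 fell, 2 rose and 5 did not pass. Their median was -0.02. SNHG12, which holds both, fell. Of the 3 holding only a scaRNA or another small RNA, SNHG10 rose and SNHG20 and SNHG21 did not pass. For GAS5 the search found no snoRNA gene in that annotation, so it was placed in no class. That does not show that GAS5 hosts none. The difference between the classes was not tested.

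A total of 161 annotated snoRNA and scaRNA entries lie inside members, and 4 of them have a row in the table. Some RNAs, SNORA17B and SNORA16A among them, are entered more than once, so there are fewer distinct RNAs. SNORA73B, in SNHG3, had 16, 14 and 23 counts in nc and 12, 14 and 11 in siZNF514 (log2 fold change -0.51, adjusted p = 0.212). SCARNA13, in SNHG10, had 11, 14 and 9 counts in nc and 27, 13 and 11 in siZNF514 (0.60, adjusted p = 0.269), with replicate 1 of siZNF514 alone far above the rest. SNORA71B, in SNHG17, gave -0.26 (adjusted p = 0.642), and SNORA73A had 1 count in each library. SNORA73B, SCARNA13 and SNORA71B thus did not pass, and SNORA73A was not tested. Whether the reads in these rows came from the guides or from the host transcripts was not tested, so the rows were not taken as guide levels.

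Levels of different members can be set side by side only per length, and here the length chosen mattered. The length behind the deposited FPKM (fragments scaled by gene length and library total) was the sum of all distinct annotated exons, overlapping ones counted repeatedly, for 11169 of 12144 genes checked (92%, within 0.1%). The union of exons gave that length for 12.1%. For some members, SNHG1 and GAS5 among them, this length exceeded the span of the gene. SNHG1 spans 3927 bases, its exon union covers 3756, and the length behind its FPKM was 14273 with 25 annotated transcripts. For SNHG29 the lengths were 16653 against 3759, for GAS5 11715 against 3631, for ZFAS1 2883 against 2243, and for SNHG19, with 1 transcript, 342 in both.

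On the deposited FPKM scale ZFAS1 had the highest nc level, 39.6 ± 1.807 (SD, n = 3), followed by SNHG8 at 25.94 ± 1.504 and SNHG29 at 22.95 ± 0.1453, with GAS5 at 17.91 ± 0.4815 and SNHG1 at 5.933 ± 0.3102. On CPM per kilobase of exon union SNHG29 led with 97.49 ± 0.8697, followed by GAS5 at 55.41 ± 1.584, SNHG8 at 49.07 ± 2.906, ZFAS1 at 48.8 ± 2.135 and SNHG32 at 46.32 ± 1.474. On that scale ZFAS1 and SNHG32 differed from SNHG8 by less than its SD, whereas SNHG29 and GAS5 were each higher than the next gene by more than their SDs. SNHG1 moved from rank 12 by FPKM to rank 7 by exon union among the 19 tested members whose span matched the annotation. SNHG14 was lowest at 0.0912 CPM per kilobase. Ratios of 1 gene between groups are untouched by its length.

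**Figure D3:**
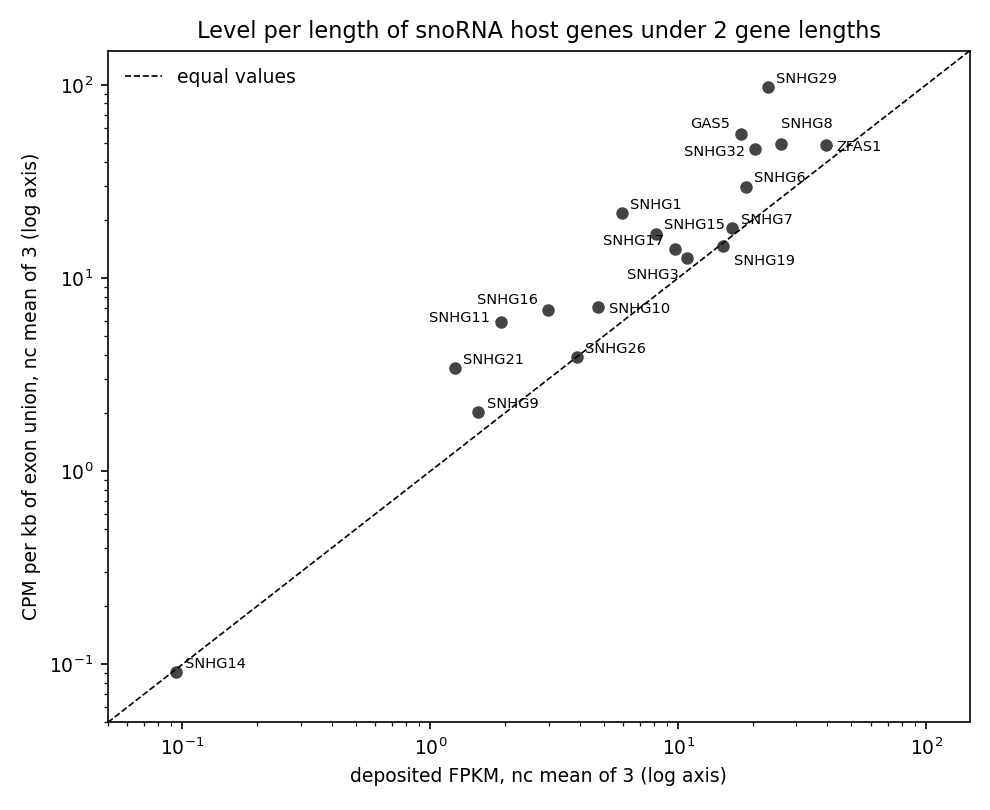
Deposited FPKM on the x axis and CPM per kilobase of exon union on the y axis, nc means of 3 libraries, both log axes, for the 19 tested members whose span matched GENCODE 29, with the line of equal values dashed. SNHG29, GAS5 and SNHG1 lie farthest above the line among the abundant members, and SNHG19 lies close to it.

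Several hosts start beside a protein-coding gene on the other strand, and such pairs often share a promoter region. All 5 pairs with annotated starts within 1000 bases were compared. RPS2, a ribosomal protein gene starting 99 bases from SNHG9, rose from 786 to 1214 CPM (log2 fold change 0.63, SE 0.050, adjusted p = 8.34e-05), while SNHG9 fell. Per 100 RPS2 counts there were 0.1842, 0.09533 and 0.15 SNHG9 counts in nc and 0.05231, 0.04018 and 0.02822 in siZNF514. The partners in this pair thus moved in opposite directions, with the SNHG9 value resting on few counts. ZNFX1, a helicase gene whose start overlaps that of ZFAS1, fell from 193 to 128 CPM (-0.59, SE 0.041, adjusted p = 4.84e-05), while ZFAS1 did not pass. Per 100 ZNFX1 counts there were 59.18, 53 and 58.28 ZFAS1 counts in nc and 81.52, 87.79 and 83.7 in siZNF514, with no overlap between the groups. ZNFX1 shares 11.1% of the ZFAS1 exon bases.

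SLC3A2, an amino acid transporter subunit gene starting 188 bases from SNHG1, did not pass (-0.08, SE 0.048, adjusted p = 0.22), and SNHG1 per 100 SLC3A2 counts went from 11.65, 13.62 and 14.19 to 9.588, 8.576 and 10.14. TRAF7, starting 340 bases from SNHG19, did not pass (0.10, adjusted p = 0.0577), and SNHG19 per 100 TRAF7 counts went from 2.37, 2.194 and 2.59 to 3.505, 4.637 and 4.012. ZBTB37, beside GAS5, did not pass (0.02, adjusted p = 0.96), and the GAS5 ratio overlapped between groups. The exact two-sided permutation p of the ratio was 0.1 for 4 pairs, the smallest that 3 against 3 libraries can give, and 0.9 for GAS5 and ZBTB37. Adjusted over the 5 pairs the 4 were 0.125, so none could pass. SNHG9, SNHG1 and SNHG19 also separated between groups without their partners, and ZNFX1 fell, so these ratios add no independent result.

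**Figure D4:**
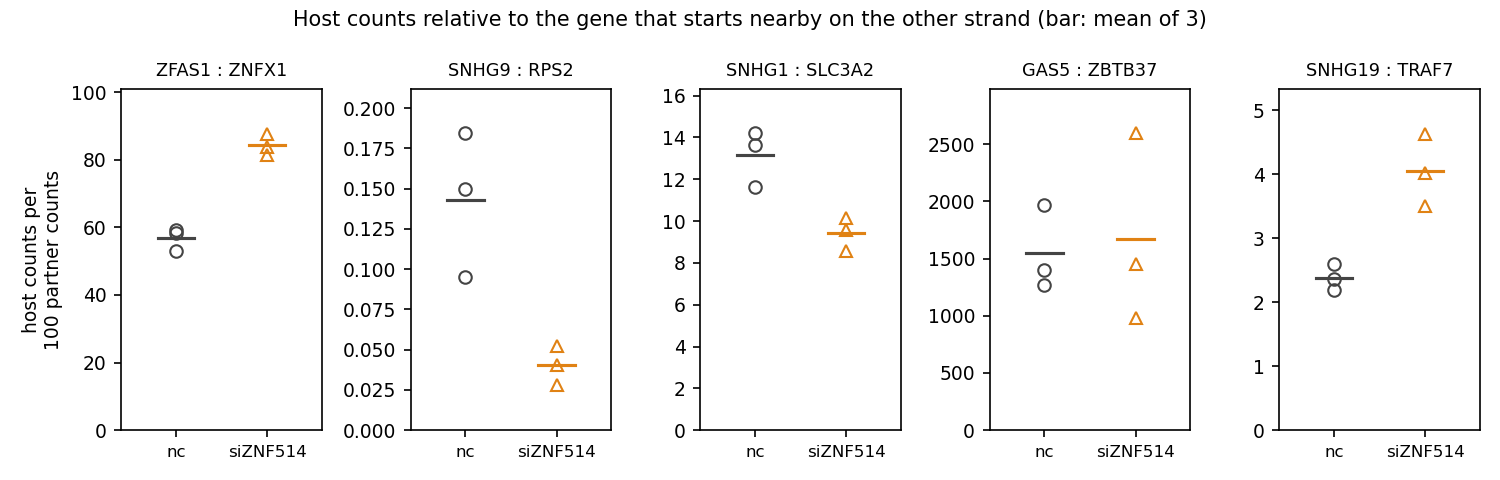
Host counts per 100 counts of the protein-coding gene starting nearby on the other strand, in each library for the 5 pairs. The nc and siZNF514 libraries are side by side, and each panel has its own axis starting at 0. The groups do not overlap for ZFAS1, SNHG9, SNHG1 and SNHG19, and overlap for GAS5. Of all tested genes, taken singly, 30.3% lay fully below nc and 30.0% fully above. The share over other gene pairs was not measured.

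The protein-coding hosts went mostly the other way. Of 50 protein-coding snoRNA hosts, 36 rose, 4 fell and 10 did not pass (median 0.34), beside 25.5% higher and 25.1% lower of all tested genes. With total counts alone 32 rose and 7 fell. The 23 ribosomal protein genes among them had 21 higher and 0 lower (median 0.47), and the other 27 had 15 higher and 4 lower (median 0.15). RPL5, which carries snoRNAs and forms a particle with the ribosomal 5S RNA, rose from 1090.3 ± 21.15 to 1688.0 ± 21.96 CPM (0.63, adjusted p = 6.21e-06), and RPSA (0.64), RPL23 (0.77) and RPL12 (0.56) rose as well. NOP56 and DKC1, which host snoRNAs and also encode proteins of the snoRNA particles, were among the 4 lower genes, with PRRC2A and HSPA8. The members' median of -0.26 thus stood beside one of 0.34 for the protein-coding hosts. Of the 2 other non-coding hosts, EPB41L4A-AS1 fell from 22.03 ± 1.565 to 13.43 ± 0.4535 CPM (-0.71, adjusted p = 0.000633) and DANCR did not pass (0.24, adjusted p = 0.532).

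Genes for proteins that bind or assemble snoRNAs were called in both directions, at shares not far from those of all tested genes (25.5% higher, 25.1% lower). Of 20, 7 rose, 4 fell and 9 did not pass (median -0.04). NOP56, a core box C/D protein, fell from 196.2 ± 9.463 to 141.4 ± 4.227 CPM (-0.47, adjusted p = 0.000302). NHP2, a core box H/ACA protein, rose (0.53), and DKC1, the pseudouridine synthase of the same particles, fell. The assembly ATPase RUVBL2 (0.49) and the Cajal body scaffold COIL (0.48) rose. NHP2 and DKC1, of the same particle, thus changed in opposite directions (DKC1 -0.24, adjusted p = 0.00871). With total counts alone the list had 6 higher and 8 lower genes.

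Genes of RNA decay and TOP control were also divided, and the same shares of all tested genes (25.5% higher, 25.1% lower, 50.6% either way) apply to their counts. Of 23 NMD factors, 4 rose, 3 fell and 16 did not pass (median 0.01). NBAS (1.07), EIF4A3 (0.47) and PNRC2 (0.62) rose and the termination factor ETF1 fell (-0.68). The 7 called are a smaller part of the list than the called share of all genes, a difference that was not tested. With total counts alone 3 NMD factors rose and 5 fell. Of 9 mRNAs known as NMD targets, 3 rose, UPP1 (0.73), ATF4 (0.38) and GADD45B (0.73), and 3 fell, with DDIT3 at -1.56. Of 15 regulators of TOP mRNAs, 6 rose, 4 fell and 5 did not pass (median 0.14). LARP1, which binds the TOP start and the cap, fell from 351 ± 3.805 to 227.6 ± 12.95 CPM (-0.63, adjusted p = 7.37e-05). EIF4EBP2 (0.65) and EIF4EBP1 (0.54), inhibitors of the cap-binding protein EIF4E, rose, and RPS6KB1, a kinase downstream of mTOR, fell (-0.37). The 6 that rose became 3 without nc replicate 3, and with total counts alone 2 rose and 6 fell. These levels are of RNA, and any part of these genes in the members' values was not tested.

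**Figure D5:**
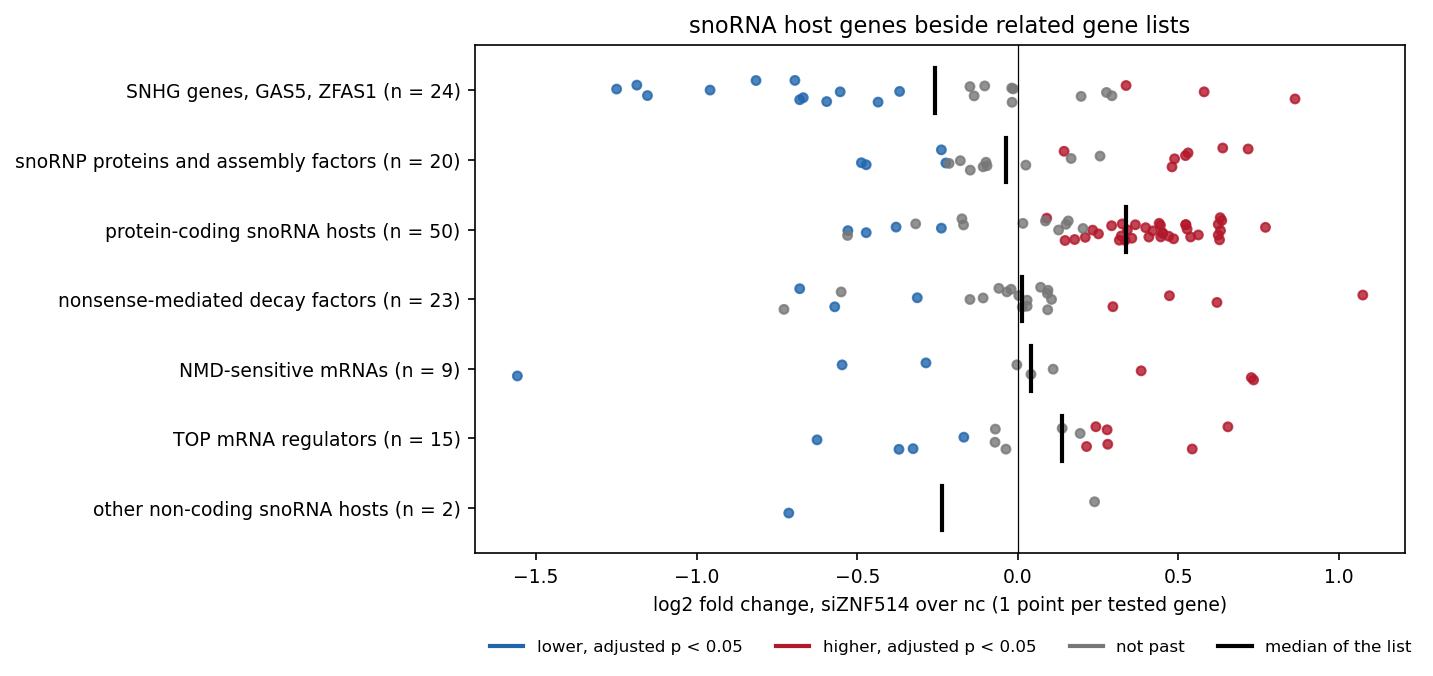
Log2 fold changes of siZNF514 over nc for each gene of the members and the 6 related lists, 1 point a gene with the list median as a bar. The members' median is -0.26 and that of the protein-coding hosts 0.34, and every list holds genes on both sides of 0.

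The 7 members that were not tested had almost no reads. SNHG18 and SNHG24 had no count in any library, which allows up to 0.07858 CPM over the nc group and 0.0727 CPM over the siZNF514 group (3 counts, for counting error only). SNHG25 had 29 counts over the nc libraries and 24 over the siZNF514 libraries, SNHG31 12 and 5, SNHG28 5 and 4, SNHG22 5 and 3, and SNHG27 2 and 2. No difference was detectable for these genes at this depth.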

How the data were processed

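The authors deposited 1 table of 50868 genes with a count column and an FPKM column for each of 6 libraries. The tools listed by the submitters' processing notes are HISAT2 2.0.4, StringTie 1.3.3b and edgeR, without roles, and the build is hg38. Per the labels, TRIzol RNA went into VAHTS V6 libraries. Strand setting and annotation release were not given in the sources used here. Deposited count columns were whole numbers and were used for all tests. The deposited FPKM columns were used only for levels per length.

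Genes were filtered with filterByExpr (minimum count 10, minimum total 15), leaving 14250. Libraries were scaled by TMM and compared with the edgeR 4.0.16 quasi-likelihood F test (R 4.3.3, 4 residual degrees of freedom) with Benjamini-Hochberg adjustment over all tested genes at 0.05. The fit was tested on simulated data. The SE is the size of the log2 fold change over the square root of F. CPM is on the TMM scale, except in the floors of members with no count, which use total counts alone. Counting intervals and floors cover counting error only. Gene models came from GENCODE 29, whose spans matched 47484 of 50111 shared genes, and promoters from RefSeq (26 of 31 members).

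Every tested member is named, and each list by up to 4 genes of smallest p. A few other genes were named after their values were seen, among them overlapping genes and cell markers. The members and lists were chosen with earlier results of these data known.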

Additional observations from a re-analysis of the deposited data

How the results depend on the processing

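Over 12 alternatives, 12 of the 15 members past the threshold kept that call in every alternative that gave a value, and none changed direction. SNHG9, SNHG8 and SNHG5 lost it at least once. SNHG9 also missed it with no filter (-1.17, adjusted p = 0.0575) and by the DESeq2 1.42.0 Wald test (-1.20, 0.0533). A mean count of at least 50 gave no value for SNHG9 and SNHG14. With total counts alone there were 2 higher and 17 lower members (median -0.39), and 2493 higher and 4775 lower genes in all. SNHG3 (-0.23, adjusted p = 0.0205) and SNHG6 (-0.26, 0.0251) also passed as lower there. The lists then had 8 lower snoRNA particle genes, 7 lower protein-coding hosts, 5 lower NMD factors and 2 higher TOP regulators. The cause was not tested.

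Values near 0 changed sign. With no filter ZFAS1 was 0.0024, SNHG29 0.0054 and GAS5 0.00029. Leaving out 1 library at a time gave -0.052 to 0.0092 for ZFAS1, -0.03 to 0.011 for GAS5, -0.025 to 0.014 for SNHG29 and -0.25 to 0.029 for SNHG20. Over the same 6 fits there were 3 to 4 higher and 10 to 12 lower members, a member median of -0.316 to -0.217, and 3 to 6 higher TOP regulators. The 3 came without nc replicate 3.

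With the replicate number as a block there were 3 higher and 12 lower members (median -0.268). Same-numbered libraries correlated at 0.0075, 0.0413 and -0.0358 in their deviations from the group means, and not every library correlated best with its own number, so the numbers were not taken as pairs. Depth limits SNHG9 and the 7 untested members.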
